A study of Rattus norvegicus with 20 samples.

Results

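The genes described here are those of the presynaptic active zone scaffold and of the protein Mover, in globular bushy cells of the rat. They were taken by name: Bsn, Pclo, Rims1, Rims2, Unc13a, Unc13b, Unc13c, Erc1, Erc2 and Tprg1l, each through every probe set whose platform annotation names that gene alone. A probe set is the group of short probes that an array uses to read 1 transcript. The rule found 12 probe sets of 9 of the 10 genes, out of 20832 probe sets that name exactly 1 gene, and Erc2 was not analysed here. Bsn, Pclo and Erc1 had 2 probe sets each.

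Globular bushy cells lie in the ventral cochlear nucleus, and their axons cross the midline and end in the trapezoid body's medial nucleus as the calyx of Held, a giant glutamatergic terminal. All animals were Sprague Dawley rats that had received a tracer, cholera toxin B, on the target side 24 hours before death, and from each animal 200 labelled cells were cut from brain sections by laser microdissection. The groups were 6 arrays at P3, around the time the calyx forms, 9 at P8, a juvenile stage before hearing onset, and 5 at P21, when the calyx is mature. Groups differed in age alone by their labels. The samples are numbered as biological replicates, with no litter or date given, so p-values measure the spread between these samples.

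The active zone is the patch of presynaptic membrane where vesicles dock, are primed and fuse. Bassoon (Bsn) and Piccolo (Pclo) are its giant scaffold proteins, the ELKS proteins (Erc1, Erc2) are coiled-coil scaffolds, RIM proteins (Rims1, Rims2) tether vesicles and calcium channels, and Munc13 proteins (Unc13a, Unc13b, Unc13c) prime vesicles for fusion. Mover (Tprg1l) is a small vertebrate protein of synaptic vesicles that binds Bassoon and is known from the calyx of Held. The arrays measure messenger RNA in the cell bodies, not protein at the terminal. In such bulk samples fewer cells of a type and less RNA per cell cannot be told apart.

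Levels are log2(intensity + 1). P8 replicates 5 to 9 are given apart by a rule set with earlier results of these data known. An earlier look had found their control probe sets apart. Their array medians were 58.9 to 67.5 intensity units against 23.8 to 32.5 on the other 15 arrays, and tests use those 15. By the mean after a 2% trim of extreme values they were not brighter, as it lay from 99.32 to 99.99 on every array. More of their readings exceeded log2 4, at 77.1% to 80.5% against 59.5% to 67.6% on the other 15 arrays. The bushy cell and fast auditory neuron markers averaged 7.27 ± 0.25 at P3 (SD, n = 6), 8.85 ± 0.67 in P8 replicates 1 to 4 (SD, n = 4) and 10.26 ± 0.18 at P21 (SD, n = 5), with 10, 11 and 11 of 11 measured markers above log2 4 on average. The markers of this list did not move alike. Slc17a6 averaged 11.13, 11.47 and 11.28 and Hcn2 6.71, 6.43 and 6.64, while Pvalb averaged 3.61, 6.44 and 9.89 and Scn4b 6.20, 9.68 and 11.46. All others of the list were higher at P21 than at P3. Over the same ages 13 measured oligodendrocyte markers averaged 4.82 ± 0.38, 7.18 ± 0.55 and 8.07 ± 0.33. The 4 inhibitory neuron markers averaged 5.68, 4.98 and 4.69, the 10 astrocyte markers 8.18, 8.11 and 8.53, and the 10 microglia markers 4.71, 4.35 and 4.68. The 5 oligodendrocyte precursor markers averaged 6.39, 6.49 and 5.72, and the 7 endothelial markers 5.96, 5.88 and 6.14. In P8 replicates 5 to 9 the bushy cell list averaged 7.54, oligodendrocyte 6.45, precursor 6.94, inhibitory neuron 5.60, astrocyte 8.37, microglia 5.68 and endothelial 5.56. For the array's GAPDH controls, the 3' level minus the 5' level, a measure of RNA shortening, averaged 2.91, 3.27 and 3.99. That of the actin controls averaged 4.70, 4.29 and 4.32. In P8 replicates 5 to 9 these differences averaged 2.2 for GAPDH and 1.9 for actin, below each of those means. Markers at 0 on all arrays of a group numbered 0 in every list. The part of these shifts in the results below was not tested, except that a fit with the GAPDH difference as covariate was made.

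Erc1 was the member whose messenger RNA fell with age on both of its probe sets, whereas Tprg1l and 1 Bsn probe set, 1374192_at, stayed close to log2 10 throughout the 15 arrays. By limma with Benjamini-Hochberg adjustment over 15650 tested probe sets, 3 of 9 tested member probe sets were called lower at P8 than at P3: both of Erc1 and 1 of Pclo. That Pclo probe set, 1387399_at, exceeded log2 4 on 5 of 15 arrays, 3 of them P3 arrays, the fewest that the filter admits. The other Pclo probe set was not called, at 0.31 (limma, adjusted p = 0.343), but was called higher in fits that used P8 replicates 5 to 9. Among all tested probe sets 15.6% were called in that comparison and 7.75% were called lower. Between P8 and P21, 1 of 9 was called, an Erc1 probe set that fell, against 16.7% called and 8.42% called lower among all. Between P3 and P21, 2 of 9 were called, both of Erc1 and both lower, against 39.1% and 19.0%. No member probe set was called higher on the 15 arrays (0 of 9 in each comparison by limma). The median difference of the 9 was -0.42, -0.07 and -0.08 in the 3 comparisons, against -0.02, 0.05 and 0.02 over all tested probe sets. The 9 include 2 probe sets each of Pclo and Erc1. Fitted by the brightest probe set per gene, 1 of 7 was called in each comparison, that of Erc1. Of all genes 17.3%, 19.8% and 43.1% were called. From P3 to P8 these 7 went both ways: Bsn 0.05, Pclo 0.31, Rims1 0.25, Tprg1l 0.41, Rims2 -0.65, Unc13c -0.42 and Erc1 -0.62. The 3 comparisons share arrays, so their values are not independent of each other.

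The 250 bases before the transcription start are shown for Erc1, the member that fell, and for Tprg1l and Bsn, each with a probe set far above log2 4 on every array that was not called. They come from the RefSeq promoter table of rat build GRCr8, which matched 9 of the 10 genes, all but Rims2. The windows are chr4:154727988-154728237 for Erc1, chr5:170007785-170008034 for Tprg1l and chr8:117754413-117754662 for Bsn, all on the minus strand. Capitals mark matches, on either strand, to the GC box GGGCGG or the CCAAT box CCAAT.
Erc1: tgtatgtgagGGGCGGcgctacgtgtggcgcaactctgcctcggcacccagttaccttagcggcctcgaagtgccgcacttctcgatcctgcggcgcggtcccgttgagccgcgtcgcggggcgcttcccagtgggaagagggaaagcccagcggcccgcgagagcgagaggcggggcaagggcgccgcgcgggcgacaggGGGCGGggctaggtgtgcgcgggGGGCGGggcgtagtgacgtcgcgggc
Tprg1l: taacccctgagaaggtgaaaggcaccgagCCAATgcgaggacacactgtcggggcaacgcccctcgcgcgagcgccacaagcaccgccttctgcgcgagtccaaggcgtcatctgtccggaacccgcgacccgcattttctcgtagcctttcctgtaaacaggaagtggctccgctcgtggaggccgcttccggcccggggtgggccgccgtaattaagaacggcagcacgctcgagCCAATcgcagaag
Bsn: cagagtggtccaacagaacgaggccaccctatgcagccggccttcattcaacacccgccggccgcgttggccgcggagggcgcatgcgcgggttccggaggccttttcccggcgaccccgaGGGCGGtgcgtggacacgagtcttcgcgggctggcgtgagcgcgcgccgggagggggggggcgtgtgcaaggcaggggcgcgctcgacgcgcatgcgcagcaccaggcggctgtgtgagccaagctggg

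The Erc1 window held 3 GC boxes, the first bases of which lie 240, 49 and 26 bases before the start, and the Bsn window held 1, at 129 bases. The Tprg1l window held 0 GC boxes and 2 CCAAT boxes, at 221 and 13 bases before the start. Of 33469 promoter windows of the same length, 30.5% held a GC box and 34% a CCAAT box. The letters of a cyclic AMP response element (TGACGTCA), an E-box (CACGTG) and a TATA box (TATAAA) were in none of the 3 windows, and were in 1.59%, 5.59% and 12.9% of all windows. The motifs do not overlap each other in these windows. GC content was 73.2% for Erc1, 63.6% for Tprg1l and 72.8% for Bsn, with a median of 51.2% over all windows.

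Erc1 encodes ELKS, a coiled-coil protein that binds RIM, Bassoon and Piccolo and also acts in vesicle traffic outside synapses. On probe set 1376103_at the P3 arrays lay from 8.99 to 9.50 with a median of 9.23. The 4 P8 arrays read 8.82, 8.46, 8.25 and 8.99, and the P21 arrays 7.40, 7.06, 6.99, 6.41 and 7.28. Every P21 array was below every P8 array, while the highest P8 array reached the lowest P3 array. The level fell by 2.22 ± 0.19 (SE) from P3 to P21, a 4.66-fold decrease (limma, adjusted p = 5.18e-07; 95% interval -2.62 to -1.82). With P8 replicates 1 to 4, most of that fall came after P8. The difference was -1.60 ± 0.21 from P8 to P21 (limma, adjusted p = 1.63e-04) and -0.62 ± 0.20 from P3 to P8 (limma, adjusted p = 0.0478). With P8 replicates 5 to 9 in their place these differences were -0.09 and -2.13.

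The second Erc1 probe set, 1391821_at, also fell, with another time course. Its P3 arrays lay from 8.23 to 8.75 with a median of 8.60. The P8 arrays read 7.57, 7.69, 7.58 and 7.75, all below every P3 array. The P21 arrays read 7.46, 7.29, 7.65, 7.02 and 7.28, which overlap those of P8. The fall from P3 to P21 was 1.23 ± 0.14, or 2.35-fold (limma, adjusted p = 7.84e-06; 95% interval -1.53 to -0.93). From P3 to P8 the difference was -0.92 ± 0.15 (limma, adjusted p = 0.00132), and from P8 to P21 it was -0.31 ± 0.16 (limma, adjusted p = 0.197). With P8 replicates 5 to 9 in place of 1 to 4 these differences were -0.61 and -0.62, both called (limma, adjusted p = 0.00984 and 0.0116). How the time courses of both probe sets compare therefore rests on which P8 arrays are used.

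The fall of Erc1 from P3 to P21 kept its direction and its call under all 28 alternatives for 1376103_at and all 27 for 1391821_at, among them the GAPDH covariate and each array left out. Alternatives that change only the P8 arrays, filter, prior, probe sets per gene or ages fitted cannot alter the difference itself, only its call. Over all alternatives the differences ran from -2.31 to -1.79 and from -1.31 to -1.15. The early step of 1376103_at was lower at P8 than at P3 in all 28 alternatives, from -0.74 to -0.49 with single arrays left out, but lay near the threshold. Its call was lost in 12 of 15 fits that leave out 1 array, all but those without P8 replicate 4, P21 replicate 1 or P21 replicate 4 (highest adjusted p = 0.131, without P8 replicate 3). It was also lost with the GAPDH covariate (adjusted p = 0.109) and with the replicate number as a block (adjusted p = 0.177). Over all 20 arrays it was -1.46 (limma, adjusted p = 0.0104), and with P8 replicates 5 to 9 in place of 1 to 4 it was -2.13 (limma, adjusted p = 1.05e-06). For 1391821_at the same step passed in all 15. The 5 other P8 arrays, replicates 5 to 9, read 6.62, 7.62, 7.61, 7.18 and 6.55 on 1376103_at, all below the P3 arrays and within or just above the P21 range. On 1391821_at they read 7.75, 7.49, 8.32, 8.14 and 8.11, of which 3 lie between the P3 and P21 ranges, 1 inside the P3 range and 1 inside the P21 range. With those arrays in place of P8 replicates 1 to 4, 1376103_at differed by -0.09 from P8 to P21 (limma, adjusted p = 0.770), and over all 20 arrays it differed by -0.76 (limma, adjusted p = 0.127), so its late step rests on which P8 arrays are used.

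**Figure D1:**
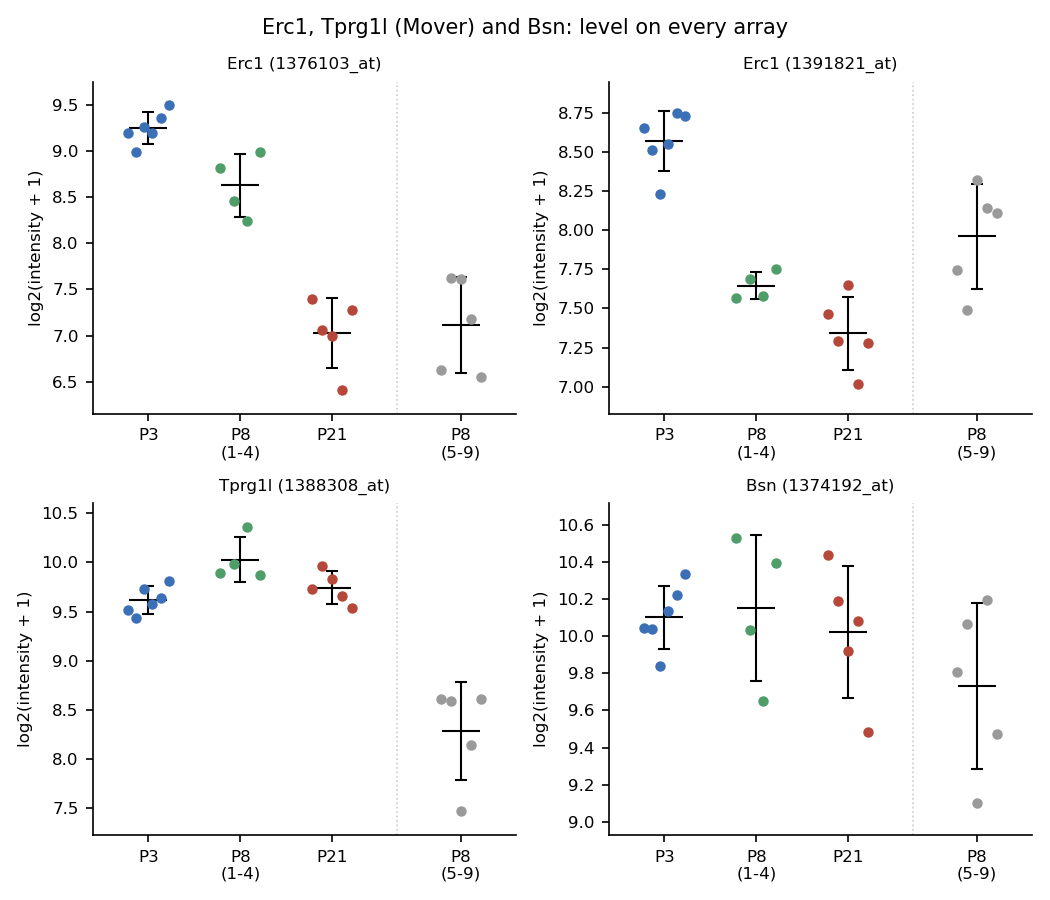
Levels of Erc1 (2 probe sets), Tprg1l and Bsn, in log2(intensity + 1), on every array by age; points are arrays, black bars the mean and SD, and P8 replicates 5 to 9 stand right of the dotted line. Both Erc1 probe sets are lower on all 5 P21 arrays than on all 6 P3 arrays, while Tprg1l and Bsn 1374192_at lie between 9.44 and 10.53 on the 15 tested arrays.

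The difference between both Erc1 probe sets on the same array changed with age. The first minus the second was 0.47 to 1.03 at P3, 0.66 to 1.25 in P8 replicates 1 to 4 and -0.65 to -0.0046 at P21. The P21 values lay below all others of the 15 arrays, so the signals of both probe sets fell unequally. In P8 replicates 5 to 9 it ran from -1.56 to 0.13. This comparison was made after the values were seen and has no test. Erc1 has alternatively spliced transcripts, and which of them each probe set reads was not examined.

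Tprg1l, for Mover, varied least among the members. The P3 arrays lay from 9.44 to 9.81 with a median of 9.61. The P8 arrays read 9.89, 9.98, 10.36 and 9.87, all above every P3 array, and the P21 arrays 9.73, 9.97, 9.83, 9.65 and 9.53. The P21 range overlapped both others. From P3 to P8 the difference was 0.41 ± 0.14, a 1.33-fold higher mean that missed the threshold (limma, adjusted p = 0.0655). It passed with a filter at log2 6 (adjusted p = 0.0412), a pseudocount of 16 (adjusted p = 0.0473) and a trended, robust prior (adjusted p = 0.0273). It was called in 0 of 15 fits that leave out 1 array (limma, lowest adjusted p = 0.0611). Over all 20 arrays the difference turned to -0.56 (limma, adjusted p = 0.236). On the 15 arrays the difference from P8 to P21 was -0.28 ± 0.15 and from P3 to P21 0.12 ± 0.13 (limma, adjusted p = 0.210 and 0.496). The 95% interval of the change from P3 to P21 was -0.16 to 0.41. Its SD over the 15 arrays was 0.23, and 5.57% of tested probe sets had a smaller one.

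P8 replicates 5 to 9 did not share this level of Mover. They read 8.62, 8.60, 7.47, 8.14 and 8.61, below all other 15 arrays. With these arrays as the P8 group the difference from P3 turned to -1.33 ± 0.21 (limma, adjusted p = 3.40e-05). In that fit 63.5% of all tested probe sets were called between P3 and P8 and their median difference was 0.31, so the sets of P8 arrays differ in far more than Mover.

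Bsn encodes Bassoon, which holds synaptic vesicles near the release site. On 1374192_at the P3 arrays lay from 9.84 to 10.33 with a median of 10.09. The P8 arrays read 10.53, 10.03, 9.65 and 10.40, and the P21 arrays 10.44, 10.19, 9.92, 10.08 and 9.48. All ages overlapped. The difference was 0.05 ± 0.20 from P3 to P8 and -0.13 ± 0.21 from P8 to P21 (limma, adjusted p = 0.896 and 0.720). From P3 to P21 it was -0.08 ± 0.19 (limma, adjusted p = 0.770), with a 95% interval of -0.49 to 0.33, so a 2.35-fold fall like that of Erc1 lay outside it. In P8 replicates 5 to 9 it ran from 9.10 to 10.20. The other Bsn probe set, 1369819_at, exceeded log2 4 on 3 of 15 arrays and was not tested. It lay from 1.72 to 3.77 at P3, from 2.77 to 4.08 in P8 replicates 1 to 4 and from 2.00 to 4.22 at P21, but reached 3.39 to 6.47 in P8 replicates 5 to 9.

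**Figure D2:**
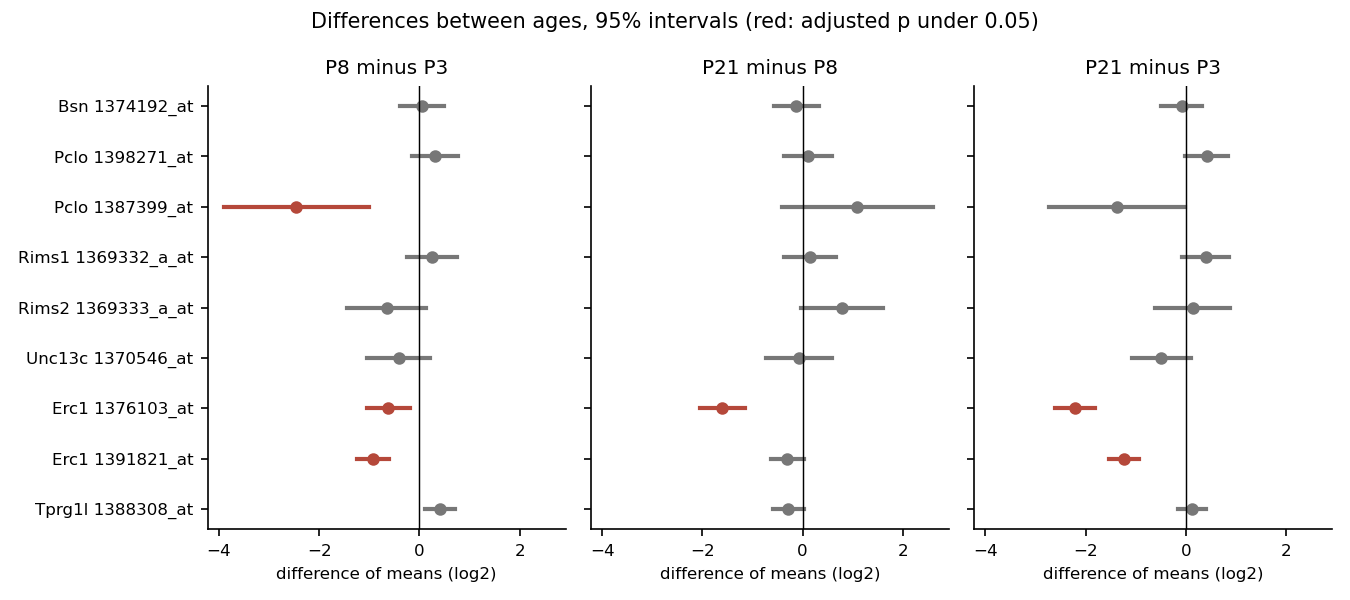
Difference of age means (log2) for the 9 tested member probe sets in the 3 comparisons; points are limma estimates, lines their 95% intervals, and red marks an adjusted p under 0.05. From P3 to P21 the intervals of both Erc1 probe sets lie below -0.93, while that of Tprg1l runs from -0.16 to 0.41.

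Pclo, the gene of Piccolo, a scaffold related to Bassoon that also binds actin regulators, gave readings that differed between its probe sets. On 1398271_at the P3 arrays lay from 3.63 to 4.74 with a median of 4.16. The P8 arrays read 4.82, 4.23, 4.27 and 4.42, and the P21 arrays 4.11, 4.83, 4.69, 4.59 and 4.49. Ages overlapped, and the difference from P3 to P21 was 0.42 ± 0.20 (limma, adjusted p = 0.112). It passed with quantile normalization (adjusted p = 0.0480), with array weights (adjusted p = 0.0405) and without P3 replicate 6 (adjusted p = 0.0322). With the GAPDH covariate it shrank to 0.13 (adjusted p = 0.784), with a pseudocount of 16 to 0.23 (adjusted p = 0.168), and over all 20 arrays it was not called. The difference from P3 to P8 on 1398271_at was 0.31 (limma, adjusted p = 0.343). Over all 20 arrays it was called higher, at 1.03 (limma, adjusted p = 0.0429). With P8 replicates 5 to 9 in place of 1 to 4 it was 1.60 (limma, adjusted p = 5.54e-04). Whether Pclo rose by P8 on this probe set therefore rests on which P8 arrays are used.

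On 1387399_at the Pclo readings were more scattered. The P3 arrays lay from 3.63 to 5.15 with a median of 3.84, and the P8 arrays read 4.17, 0.68, 0.68 and 0.77. The P21 arrays read 1.20, 2.07, 4.07, 2.29 and 3.68. P8 replicate 1 stood with the P3 arrays, while the other 3 P8 arrays were near 0. The fall from P3 to P8 was called at -2.45 ± 0.68 (limma, adjusted p = 0.0242). That call stood in 7 of 15 fits that leave out 1 array. It was lost in the 3 without P8 replicate 2, 3 or 4 (adjusted p = 0.0711, 0.0700 and 0.0619), and in the 5 without P3 replicate 1, 2 or 4, P8 replicate 1 or P21 replicate 3 the probe set dropped below the filter. It was also lost over all 20 arrays (-0.71, adjusted p = 0.512), with the replicate block (adjusted p = 0.0838) and with array weights (adjusted p = 0.112). With a pseudocount of 16 the difference shrank to -0.69 (adjusted p = 0.0532). This probe set exceeded log2 4 on 5 of 15 arrays, the fewest that the filter admits. P8 replicates 5 to 9 ran from 2.23 to 6.44 on it and from 4.36 to 6.88 on the other, against P21 maxima of 4.07 and 4.83.

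Rims1 encodes a RIM protein, a tether of vesicles and calcium channels at the release site. Its probe set lay from 4.04 to 4.82 at P3 with a median of 4.48. The P8 arrays read 4.89, 4.26, 5.21 and 4.64, and the P21 arrays 4.80, 4.61, 4.67, 4.78 and 5.64. All ages overlapped, and the difference from P3 to P21 was 0.40 ± 0.22 (limma, adjusted p = 0.163; 95% interval -0.07 to 0.87). Without P21 replicate 5, the highest of its age, it was 0.22 (adjusted p = 0.415).

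Rims2, for a related RIM protein, scattered more between arrays. The P3 arrays lay from 4.19 to 5.26 with a median of 4.70, the P8 arrays read 4.66, 4.46, 3.47 and 3.67, and the P21 arrays 4.66, 3.47, 5.21, 5.20 and 5.72. The mean was lowest at P8, by 0.65 ± 0.37 below P3 and 0.79 ± 0.38 below P21 (limma, adjusted p = 0.245 and 0.181), with overlap in both comparisons. Without P21 replicate 2 the rise from P8 to P21 was called, at 1.13 (limma, adjusted p = 0.0238). Rims1 minus Rims2 on the same array ran from -0.51 to 0.18 at P3, from -0.20 to 1.73 at P8 and from -0.53 to 1.14 at P21. These ranges overlap. A shift between both RIM genes was not visible beyond the spread of the arrays.

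Unc13c, the isoform best known from cerebellar granule cells, was the 1 Munc13 gene above log2 4 on all 15 arrays. Its P3 arrays lay from 5.41 to 6.20 with a median of 5.71. The P8 arrays read 6.16, 4.29, 5.64 and 5.17, and the P21 arrays 5.09, 4.74, 5.62, 5.22 and 5.55. All ages overlapped, and the difference from P3 to P21 was -0.49 ± 0.28 (limma, adjusted p = 0.182; 95% interval -1.08 to 0.11). The 6 measured cerebellar granule cell markers averaged 6.51, 5.81 and 6.72 at P3, P8 and P21 on the 15 arrays, and 7.40 in P8 replicates 5 to 9.

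Unc13a encodes the main priming factor of most glutamatergic synapses. Its probe set exceeded log2 4 on 1 of 15 arrays and was not tested. It read 1.81 to 3.82 at P3, 2.35 to 4.01 at P8 and 1.81 to 3.00 at P21. Unc13b, which encodes a priming isoform of a subset of synapses, also exceeded log2 4 on 1 of 15 arrays. It read 2.10 to 4.04 at P3, 1.26 to 3.19 at P8 and 2.00 to 3.62 at P21. In both genes all 3 ages overlapped. At such readings the arrays do not show whether the transcripts changed with age. P8 replicates 5 to 9 read 4.86 to 7.05 for Unc13b, above every other array, and 2.91 to 4.62 for Unc13a.

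**Figure D3:**
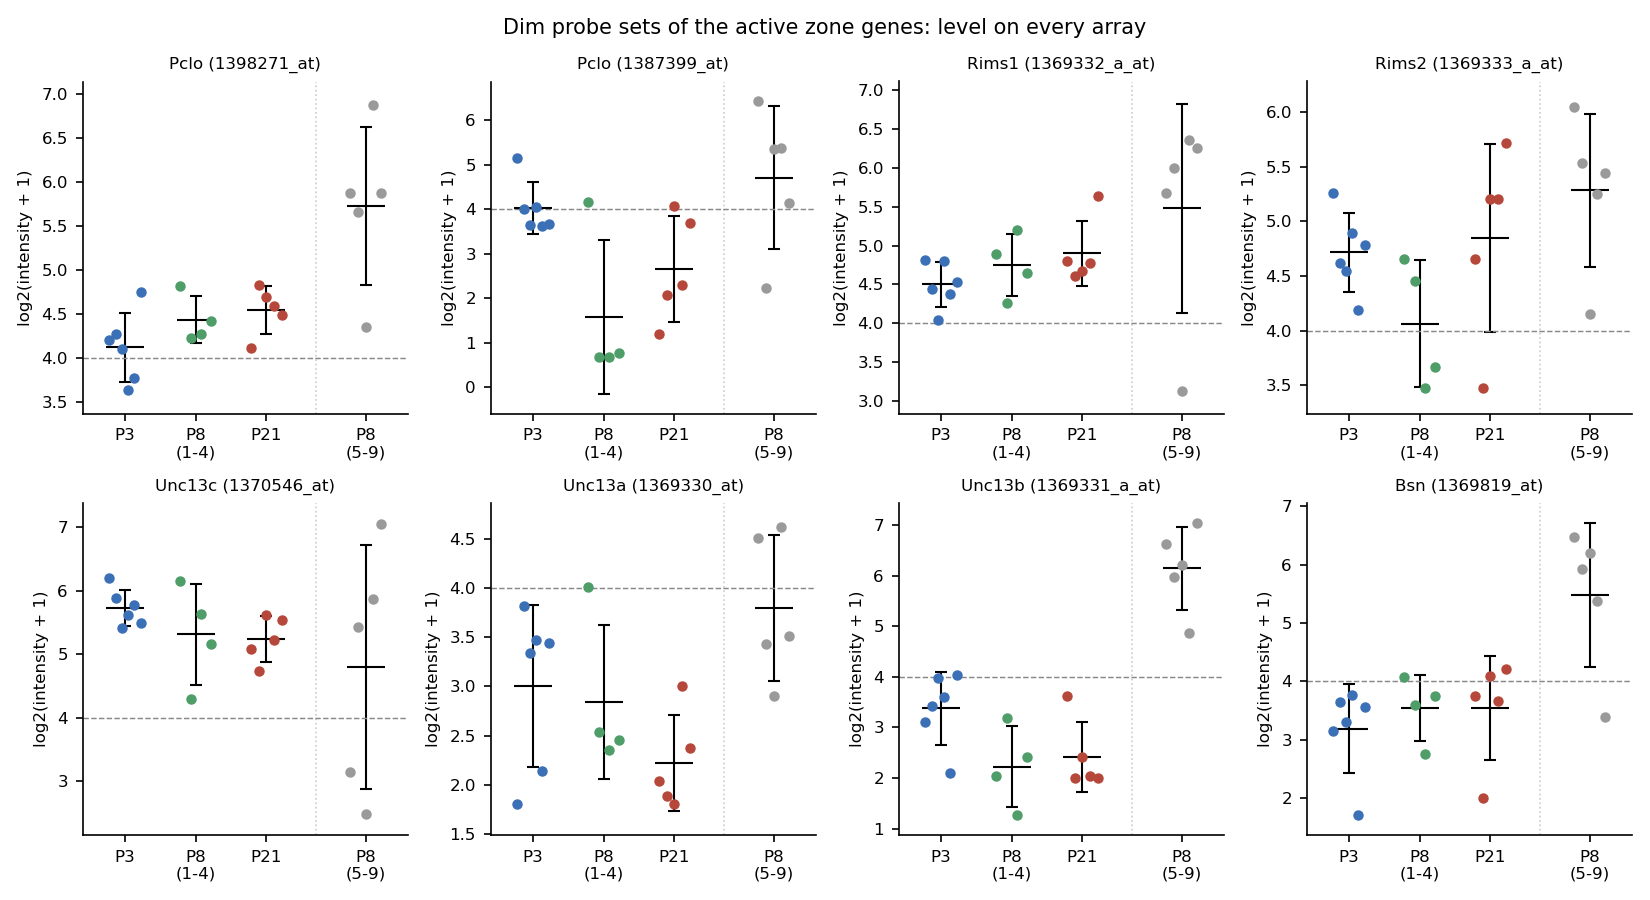
Levels of the 8 dimmer member probe sets, in log2(intensity + 1), on every array by age; points are arrays, black bars the mean and SD, the dashed line is log2 4 and P8 replicates 5 to 9 stand right of the dotted line. Unc13a, Unc13b and Bsn 1369819_at lie mostly under log2 4 on the 15 tested arrays, and Pclo 1387399_at is near 0 on 3 of 4 P8 arrays.

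Within an array, Bsn 1374192_at minus Pclo 1398271_at ran from 5.59 to 6.50 at P3, from 5.38 to 5.98 in P8 replicates 1 to 4 and from 5.00 to 6.33 at P21. The ranges overlap. Pclo 1398271_at itself lay from 3.63 to 4.83 on the 15 arrays, near the log2 4 of the filter. This difference therefore cannot decide whether Bsn and Pclo changed unequally. Both Pclo probe sets differed from each other by -1.08 to 0.94 at P3, by -3.65 to -0.65 in P8 replicates 1 to 4 and by -2.91 to -0.62 at P21, and these ranges overlap. Unc13a minus Unc13c overlapped at all ages, from -4.39 to -1.76 over the 15 arrays, and so did Unc13a minus Unc13b, from -1.59 to 1.97. In P8 replicates 5 to 9 Bsn minus Pclo was 3.32 to 4.74, below the other 15 arrays.

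**Figure D4:**
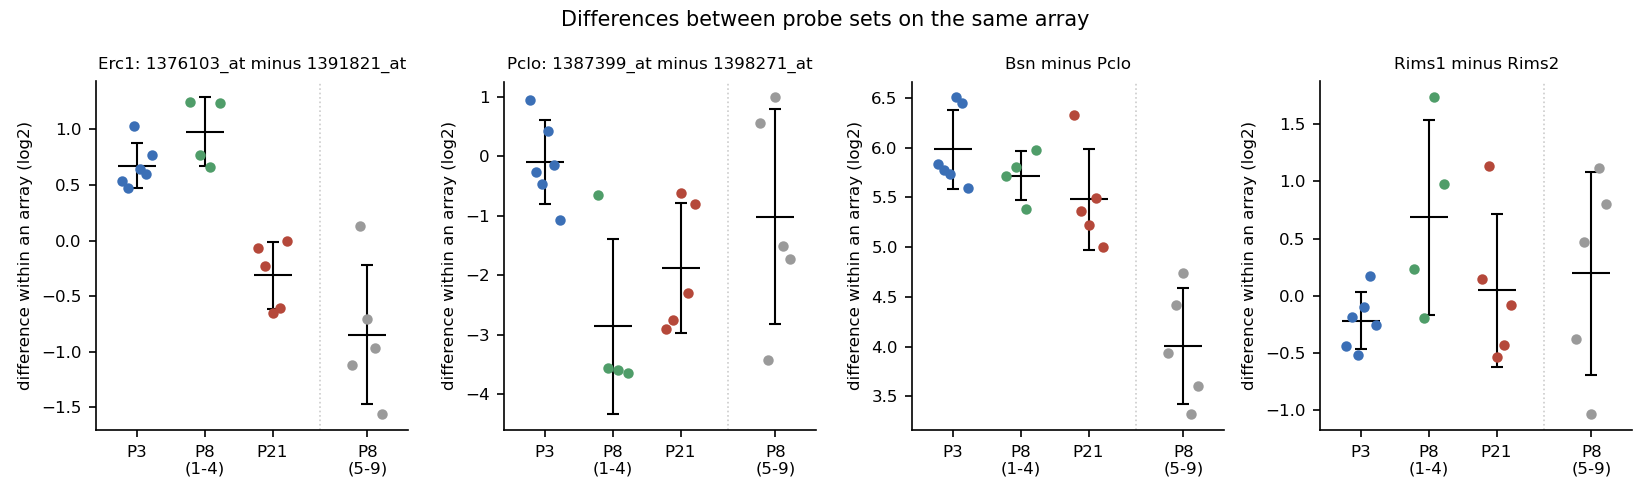
Differences within an array (log2) between both Erc1 probe sets, both Pclo probe sets, Bsn and Pclo, and Rims1 and Rims2, by age; points are arrays, black bars the mean and SD, and P8 replicates 5 to 9 stand right of the dotted line. The Erc1 difference is below 0 on all 5 P21 arrays and above 0 on the 10 P3 and P8 arrays left of the line.

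A list of 55 partner genes covered proteins that bind the scaffold, small GTPases of the Rab3 family and their effectors, presynaptic calcium channel subunits, receptor phosphatases, neurexins and vesicle proteins. Of these 46 were measured and 41 tested, each gene by its brightest probe set. From P3 to P21, 10 rose, 9 fell and 22 did not pass, against 21.8% and 19.8% of all genes. From P3 to P8, 7 rose and 3 fell, against 8.79% and 7.44% of all genes. From P8 to P21, 2 rose and 8 fell, against 8.89% and 9.46% of all genes. The median difference of the partners was 0.01 from P3 to P21.

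Rimbp2, for the RIM-binding protein that links RIM to calcium channels, was lower than at P3 on every later array. Its arrays lay from 9.87 to 10.33 at P3, from 8.81 to 9.55 in P8 replicates 1 to 4 and from 8.39 to 9.08 at P21. It fell by 1.30 ± 0.17 from P3 to P21 (limma, adjusted p = 2.72e-05) and fell by 0.90 ± 0.18 from P3 to P8 (limma, adjusted p = 0.00455). Replicates 5 to 9 of P8 also lay below P3, from 8.54 to 9.41. Apba1, for an adaptor of the Mint family that binds Cask, fell by 1.32 ± 0.14 from P3 to P21 and by 0.97 ± 0.16 from P8 (limma, adjusted p = 4.44e-06 and 7.45e-04). The latter call was lost over all 20 arrays (-0.58, adjusted p = 0.113) and with P8 replicates 5 to 9 in place of 1 to 4 (-0.27, adjusted p = 0.354). Rab3d, a minor Rab3 of secretory cells, read 4.58 to 5.89 at P3 and 1.07 to 1.96 at P21, under the log2 4 of the filter. It fell by 3.85 ± 0.45 from P3 to P21 and fell by 1.88 ± 0.48 from P3 to P8 (limma, adjusted p = 1.07e-05 and 0.0168). The size of such a fall depends on the floor: with a pseudocount of 16 the differences were -1.71 and -1.02, both called. The latter call was lost without P8 replicate 3 (adjusted p = 0.0550). Rab3b fell by 2.31 ± 0.47 from P8 to P21 and Ppfibp1, a liprin-beta, fell by 1.50 ± 0.31 (limma, adjusted p = 0.00371 and 0.00451), but over all 20 arrays Ppfibp1 differed by 0.037 (adjusted p = 0.971). Ptprf, for the receptor phosphatase LAR that binds liprins, fell by 0.50 ± 0.16 from P3 to P8 (limma, adjusted p = 0.0438), a call lost in 12 of 15 fits that leave out 1 array, all but those without P3 replicate 3, P8 replicate 2 or P21 replicate 5 (highest adjusted p = 0.113, without P8 replicate 1).

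Among the partners that rose was Lin7b, for a small scaffold in a complex with Cask and Mint. It rose by 1.42 ± 0.18 from P3 to P8 and stood 1.15 ± 0.17 above P3 at P21 (limma, adjusted p = 3.01e-04 and 1.02e-04), with no overlap of arrays in either comparison. In P8 replicates 5 to 9 it ran from 4.29 to 6.89, reaching below its P3 range of 6.06 to 6.92. Git2, a relative of the Piccolo-binding scaffold Git1, rose by 1.49 ± 0.21 from P3 to P8 (limma, adjusted p = 5.25e-04). It then differed by -0.72 ± 0.22 from P8 to P21 and stood 0.77 ± 0.20 above P3 at P21 (limma, adjusted p = 0.0369 and 0.00639). Ppfibp2, the other liprin-beta, rose by 1.02 ± 0.20 from P3 to P8 and 1.20 ± 0.19 from P3 to P21 (limma, adjusted p = 0.00465 and 1.76e-04). With a pseudocount of 16 the Ppfibp2 differences were 0.65 and 0.78, both called. Over all 20 arrays the calls of Lin7b were lost from P3 to P8 (0.36, adjusted p = 0.545) and from P3 to P21 (adjusted p = 0.158), and that of Ppfibp2 from P3 to P21 (adjusted p = 0.0568). Sv2b, for a vesicle glycoprotein, rose by 1.00 ± 0.19 from P3 to P21 (limma, adjusted p = 7.09e-04). From P8 to P21 Syde1, for a regulator of presynaptic assembly, rose by 0.79 ± 0.21 and Rab3c by 0.85 ± 0.25 (limma, adjusted p = 0.0158 and 0.0272). The Syde1 call was lost without P8 replicate 2 (adjusted p = 0.0537), that of Rab3c without P8 replicate 1 or 3 or P21 replicate 2 or 4 (highest adjusted p = 0.0849, without P8 replicate 3), and both with the GAPDH covariate (adjusted p = 0.0897 and 0.106). Both were also lost over all 20 arrays (0.46 and 0.14, adjusted p = 0.180 and 0.770).

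**Figure D5:**
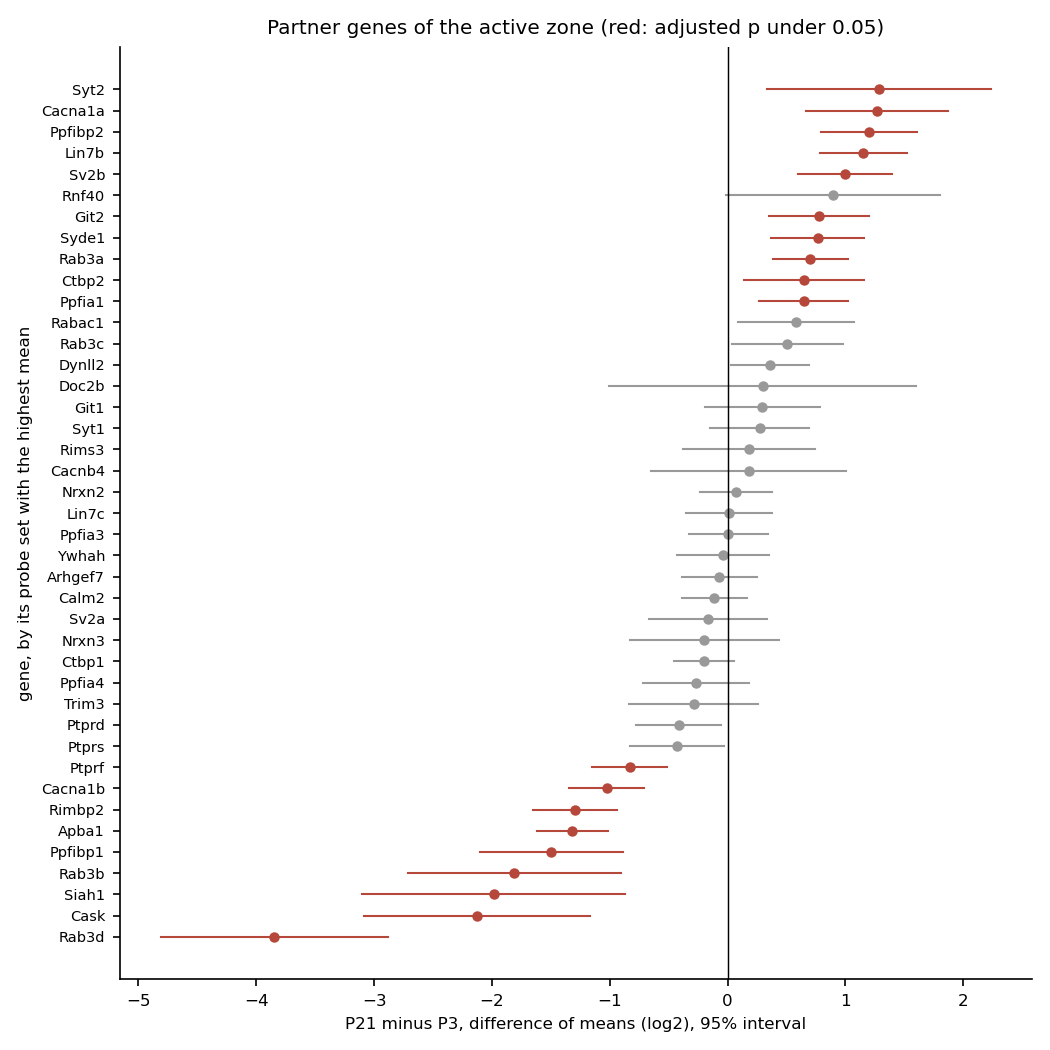
P21 minus P3 difference of means (log2) with 95% intervals for the 41 tested partner genes, each by its brightest probe set; red marks an adjusted p under 0.05. The 9 genes that fell run from Ptprf to Rab3d and include Rimbp2 and Apba1, and the 10 that rose run from Ppfia1 to Syt2.

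The genes whose levels followed a member most closely over the 15 arrays were taken by Pearson correlation, as a description, since all points share arrays and ages. For Erc1 1376103_at they were Zfp277, a zinc finger gene, at r = 0.975, and Npas3, for a brain transcription factor, at r = 0.969. Npas3 averaged 9.24, 8.15 and 6.13 at P3, P8 and P21. For Tprg1l they were Sardh, a mitochondrial dehydrogenase, at r = 0.925, and Snx3, a sorting nexin, at r = 0.905, and both averaged highest at P8 (5.59 and 11.03). For Pclo 1398271_at they were Cd247 at r = 0.916 and Ly6al at r = 0.853, which averaged 4.55 to 5.17 at the 3 ages.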

How the data were processed

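RNA of 200 laser-cut cells per animal was amplified over 2 rounds and hybridised to 1-colour arrays, per the labels' protocols, and 20 arrays with 31099 probe sets were used here. The authors deposited 1 linear intensity per probe set and array, with no background or detection columns. GCRMA is named in the submitters' processing notes, without role or version, and other steps are not given in the sources used here. The number of arrays limits the precision.

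Probe sets were named from the platform annotation, with symbols updated for 20764 through Entrez identifiers (GRCr8 RefSeq, names only). From the deposited intensity, log2(intensity + 1) was computed without further normalization and fitted by age with limma 3.58.1 in R 4.3.3, on the 15 arrays without P8 replicates 5 to 9. Tested were probe sets naming 1 gene and above log2 4 on at least 5 arrays, with Benjamini-Hochberg adjustment over all and calls under 0.05. The script was tested on simulated data. No arrays were identical.

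The text names every member probe set, up to 3 called partners of smallest p per comparison and direction, and, for each member gene with a call and Tprg1l, the 2 genes of highest correlation with its brightest probe set. The members and lists were chosen with earlier results of these data known. Alternatives varied the filter, pseudocount, normalization, prior, array weights, probe sets per gene, arrays, replicate block and GAPDH covariate.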

Additional observations from a re-analysis of the deposited data

Results flagged for a closer look

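In 48 groups of arrays, 1 for each member probe set and set of arrays, 8 held an array flagged by Dixon's rule. Its gap to the nearest neighbour, divided by the range of the group, exceeded the 95% critical value. For normal values chance gives about 1 in 20 groups. These groups share arrays and several lie near the floor, so no excess over chance is read from the count. They were probe sets of Pclo, Rims1, Unc13a, Unc13b and Bsn 1369819_at, and none was of Erc1, Tprg1l or Bsn 1374192_at. On Pclo 1387399_at, P8 replicate 1 read 4.17, with the next array at 0.77, and P3 replicate 1 read 5.15, with the next at 4.05. On Bsn 1369819_at, P3 replicate 5 read 1.72, with the next at 3.15, and P21 replicate 2 read 2.00, with the next at 3.67. For Rims1, P21 replicate 5 read 5.64, with the next at 4.80, and P8 replicate 7 read 3.12, with the next at 5.68. For Unc13a, P8 replicate 1 read 4.01, with the next at 2.54. For Unc13b, P21 replicate 1 read 3.62, with the next at 2.41.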

How the results depend on the processing

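Of 9 tested member probe sets, 3 differed at P8 against P3, 1 at P21 against P8 and 2 at P21 against P3. The first count was 1 with array weights, 1 with 1 probe set per gene and 1 to 3 with single arrays left out. The second was 0 over all 20 arrays and 1 to 2 with single arrays left out. The third was 1 with 1 probe set per gene. The 10 partner calls from P8 to P21 became 4 over all 20 arrays, 6 with array weights, 5 with the GAPDH covariate, 5 with only the ages compared and 6 to 11 with single arrays left out, and the 19 from P3 to P21 became 7 over all 20 arrays. The cause was not tested.

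With the replicate number as a block, 1, 1 and 2 member probe sets were called. Same-numbered arrays did not deviate together over all tested probe sets (correlations -0.06 to 0.08 over 13 pairs). This cannot show whether they share a litter or date, which the labels do not give.

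With P8 replicates 5 to 9 in place of 1 to 4, an alternative chosen after seeing the data, 6 of 11 member probe sets and 31 of 41 partners were called from P3 to P8, against 63.5% of all probe sets, and 6 of 11 and 22 of 41 from P8 to P21, against 63.0%. The median of all probe sets then shifted to 0.31 and -0.38. Directions turned from P3 to P8 for Rims2 (0.57), Bsn 1374192_at, called Bsn from here, (-0.37), Pclo 1387399_at (0.68), Tprg1l (-1.33) and Lin7b (-0.49). From P8 to P21 they turned for Rims1 (-0.58), Rims2 (-0.44), Unc13c (0.45), Bsn (0.29), Pclo 1387399_at (-2.04), Tprg1l (1.46), Pclo 1398271_at (-1.18), Rab3c (-0.43) and Ppfibp1 (1.27, limma adjusted p = 0.0292). Over all 20 arrays they turned from P3 to P8 for Rims2 (0.026), Bsn (-0.19) and Tprg1l (-0.56), and from P8 to P21 for Rims1 (-0.26), Unc13c (0.22), Bsn (0.10), Pclo 1387399_at (-0.65), Tprg1l (0.68), Pclo 1398271_at (-0.61) and Ppfibp1 (0.037). Uncalled differences also turned for Bsn from P3 to P8 under quantile normalization (-0.010), and with the GAPDH covariate for Pclo 1398271_at from P8 to P21 (-0.083) and Tprg1l from P3 to P21 (-0.081). Leaving out single arrays, Bsn ran from -0.076 to 0.22, from -0.30 to 0.0050 and from -0.18 to 0.055 in the 3 comparisons, Unc13c from -0.41 to 0.21 and Rims1 from -0.035 to 0.30 from P8 to P21, and Rims2 from -0.083 to 0.48 from P3 to P21. Intensities near the floor limit what Unc13a, Unc13b and Bsn 1369819_at can show.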
